A study of Rattus norvegicus with 23 samples.

Results

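The comparison of ozone sons with air sons asks how the liver of adolescent male rats differed between litters whose dams inhaled ozone and litters whose dams inhaled filtered air. Members were chosen by the labels for sex and maternal treatment, which gave 11 of the 23 liver libraries of the series: 5 sons of dams exposed to 0.8 ppm ozone on gestation days 5 and 6, and 6 sons of dams kept in filtered air. All were sampled at about postnatal day 48, and the other 12 libraries came from daughters of the same exposures. The labels give no strain or genetic alteration and do not tie offspring to dams. Brothers would count here as separate animals, which would make p-values too small. The labels' treatment text also mentions repeated chamber exposures for some rats, which it does not name. All library names state 0 ppm, and the sons' exposure was taken to be the maternal one alone.

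The liver of the rat is one of the most sexually dimorphic tissues in gene expression. After puberty, males release growth hormone in separated pulses and females release it more steadily, and hepatocytes read this pattern through the growth hormone receptor and STAT5b. Male- and female-type cytochrome P450 enzymes, sulfotransferases and secreted proteins follow. The series title describes the male profile as feminized, and daughters are given beside sons where the values allow it.

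Poly(A) RNA was sequenced, and the deposited table held estimated read counts for 18056 Ensembl gene identifiers. None of the identifiers (0 of 18056) could be paired with a symbol through the RefSeq table used here. Gene lists and cell type markers, including the markers of hepatocytes, were therefore not tested, and genes are given by identifier or by class. The liver label itself was not checked against markers for the same reason. In bulk liver, fewer cells of a type and less RNA per cell cannot be told apart.

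Library names had 2 styles, treated as 2 sample sheets. Sheet 1 held 4 ozone and 3 air sons, and sheet 2 held 1 ozone son and 3 air sons. Ozone sons were sequenced more deeply within sheets. Total counts averaged 11737779 ± 1323546 against 10743372 ± 1315942 in air sons (SD, n = 5 and 6), a difference of 1499988 within sheets (two-sided exact permutation within sheets, p = 0.00714, the smallest that 140 arrangements allow; adjusted p = 0.0286 over 4 library properties). The difference was 941800 without ozone son 2 (exact permutation p = 0.0286), and with sheets ignored 994400 (p = 0.251). The 10 most abundant genes took 23.58% ± 0.654 of the counts in ozone and 24.66% ± 0.691 in air sons, which did not pass after adjustment (exact permutation p = 0.0571, adjusted 0.114). At an equal depth of 8000476 counts, a library of either group would hold about as many genes: 15471 ± 93 in ozone and 15456 ± 99 in air sons (exact permutation p = 0.971). Genes with fractional counts took 43.15% ± 0.779 and 42.76% ± 0.554 (exact permutation p = 0.25).

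The change in sons was broad and mostly small. Of 12792 genes tested, 1661 (13%) passed an adjusted p of 0.05 (edgeR quasi-likelihood test, Benjamini-Hochberg). These were 926 genes that rose (7.24%) and 735 that fell (5.75%). The balance of rises and falls depended on scaling and on the tool. With total counts only, 760 rose and 813 fell, and with RLE scaling factors 992 rose and 704 fell. With limma voom on TMM scaling, as in the main fit, 757 rose and 792 fell. Most called genes changed modestly: 593 by less than 1.5-fold (336 rose and 257 fell) and 783 by 1.5 to 2-fold (398 rose and 385 fell). The strong changes were mostly rises. Between 2 and 4-fold 136 genes rose and 85 fell, and over 4-fold 56 rose and 8 fell. When the counts of all sons were thinned to the same total, 1589 genes passed, of which 1477 were among the 1661 with the same direction.

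**Figure D1:**
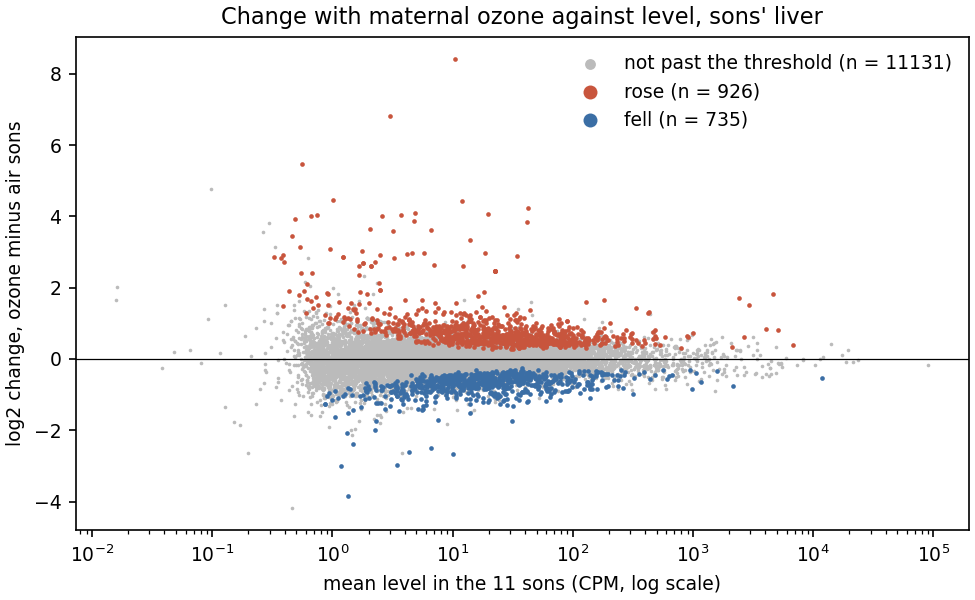
Each point is 1 of the 12792 genes; the x axis is its mean level in the 11 sons in CPM (counts scaled to library size, log scale) and the y axis its log2 change, ozone minus air sons. The 926 genes that rose are red, the 735 that fell blue and the others grey. Called changes over 4-fold (beyond 2 or −2 on the y axis) are mostly rises, 56 against 8.

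Changed genes were found at all levels of expression. The share called was 4.67% of the 771 genes averaging under 1 CPM (counts scaled to library size) in sons, 8.86% from 1 to 10 CPM, 17.5% from 10 to 100 CPM and 15.6% from 100 to 1000 CPM, against 13% of all genes. Of the 123 genes at 1000 CPM or more, 13 changed (8 rose and 5 fell). The median log2 change of the genes that rose was 0.87 from 1 to 10 CPM, 0.61 from 10 to 100 CPM, 0.56 from 100 to 1000 CPM and 0.82 in the 8 genes at 1000 CPM or more. Among the genes that fell it was −0.78, −0.63, −0.54 and −0.54. Genes with whole counts in every library were called in 11.5% of cases, and genes with fractional counts, whose reads are divided between genes or copies, in 15.6%.

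The called genes made up a visible part of the liver's messenger RNA. Those that rose took 6.25%, 5.73%, 5.53%, 5.45%, 5.65% and 5.70% of the counts of tested genes in air sons 1 to 6, and 10.7%, 10.5%, 9.37%, 6.73% and 10.7% in ozone sons 1 to 5. Every ozone son lay above every air son, with ozone son 4 only just above. The genes that fell took 4.87% to 6.07% in air sons and 3.43%, 3.47%, 3.52%, 4.70% and 3.59% in ozone sons 1 to 5. These libraries chose the genes, so the separation is a description. Few genes carried the gain: 9 genes gave 50% of the 3.88 percentage points gained and 21 genes 50% of the 1.86 points lost. Liver counts are themselves concentrated, with 24.66% of them in the 10 most abundant genes in air sons. The same shares were not computed over all genes, so this is not read as a trait of the called genes. In air daughters the genes that rose in sons took 9.66% ± 0.664 of the counts, beside 9.60% ± 1.69 in ozone sons and 5.72% ± 0.284 in air sons. The genes that fell took 3.55% ± 0.311 in air daughters, 3.74% ± 0.538 in ozone sons and 5.60% ± 0.423 in air sons (SD, n = 6, 5 and 6). Daughters' libraries entered the joint fit that called these genes. With genes called from the sons alone (1136 rose and 888 fell), the shares were 12.6% ± 1.03 in air daughters, 12.1% ± 1.95 in ozone sons and 7.45% ± 0.367 in air sons for the rises. For the falls they were 4.04% ± 0.387, 4.34% ± 0.657 and 6.61% ± 0.477. With the jointly called genes, single air daughters ranged from 8.54% to 10.4% and from 3.17% to 4.01%. Ozone sons 1, 2, 3 and 5 lay within or above the first range and within the second, and ozone son 4 lay outside both, on the side of the air sons. Ozone daughters took 9.68% ± 0.795 and 4.23% ± 0.679 (SD, n = 6).

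**Figure D2:**
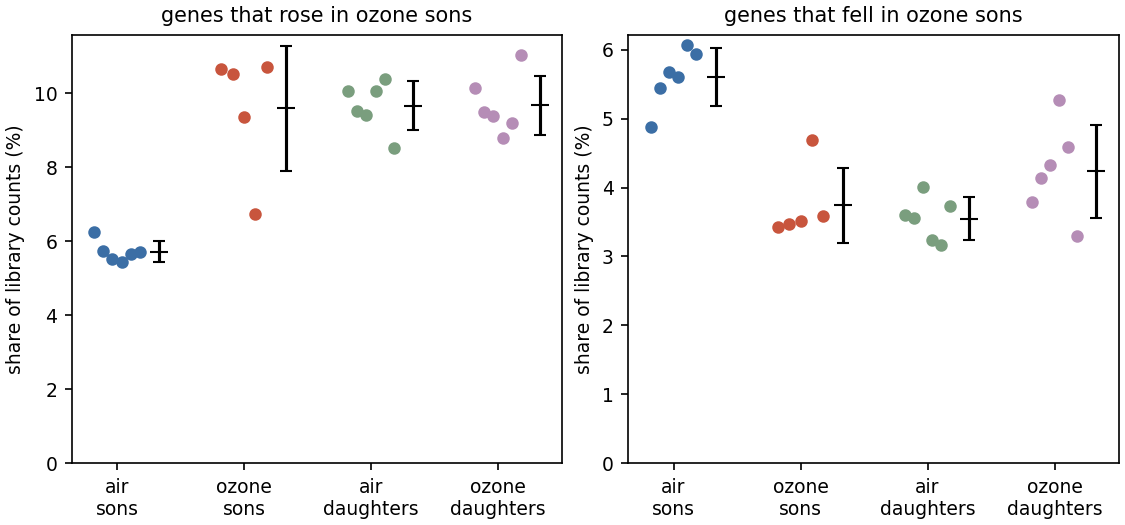
Share of each library's counts of tested genes (%) in the genes that rose (left) and fell (right) in ozone sons, by group; points are libraries and black bars the mean and SD. Air sons average 5.72% and 5.60%, ozone sons 9.60% and 3.74% and air daughters 9.66% and 3.55%, and ozone son 4 lies at 6.73% and 4.70%.

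The 56 genes that rose over 4-fold were scarce transcripts in air sons, with a median of 0.573 CPM. The median over these genes was 5.04 CPM in ozone sons, 5.49 in air daughters and 5.06 in ozone daughters. In air sons the median gene lay between 0.333 and 0.712 CPM in every library. In ozone sons 1, 2, 3 and 5 it lay at 5.56, 5.56, 4.95 and 7.16 CPM, and in ozone son 4 at 1.14 CPM. Only 20 of the 56 reached 1 CPM in air sons, and 51 did in ozone sons. The same sons chose these 56 genes by their rise, so the sons' levels are a description. The filter on low counts used all 4 groups, so some of these genes may have entered through daughters' libraries. The daughters' levels are therefore a description as well. Reads shared between genes limit this class, since only 22 of the 56 had whole counts in every library. The 8 genes that fell over 4-fold, chosen by the same sons, had a median of 4.05 CPM in air sons, 0.624 in ozone sons, 1.12 in air daughters and 2.01 in ozone daughters. No gene switched fully by a strict cut-off: 0 genes had at least 1 CPM in every ozone son with at most 3 counts in all air sons together, and 0 showed the opposite. The cut-off had to hold in ozone son 4 as well, and no other cut-off was tried.

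The number of genes called depended on single animals. Without ozone son 2, the only ozone son of sheet 2, 108 genes passed, and without ozone son 4, 3129 did. Leaving out ozone sons 1, 3 and 5 gave 450, 631 and 823 genes. Leaving out air sons 1 to 6 gave 1966, 786, 840, 983, 1093 and 751. In each of these fits 0 genes were called in the direction opposite to the full fit. In all 11 fits 105 genes passed (75 rose and 30 fell), 6.32% of the 1661. The fit without ozone son 2, with 108 genes that were all among the 1661, nearly set this list. The rises among the 105 were large, with a median log2 change of 2.41, against 0.68 for all genes that rose. The falls were moderate, with −0.73, against −0.68. These genes had to pass the fit with the fewest calls, so the size of their changes follows in part from the choice. The 75 had a median level of 5.45 CPM in air sons and 16.2 CPM in ozone sons, the 30 of 31.9 and 19.5 CPM. In sheet 1 alone (4 ozone and 3 air sons) 9 genes passed (6 rose and 3 fell), and 7 of them were among the 1661.

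**Figure D3:**
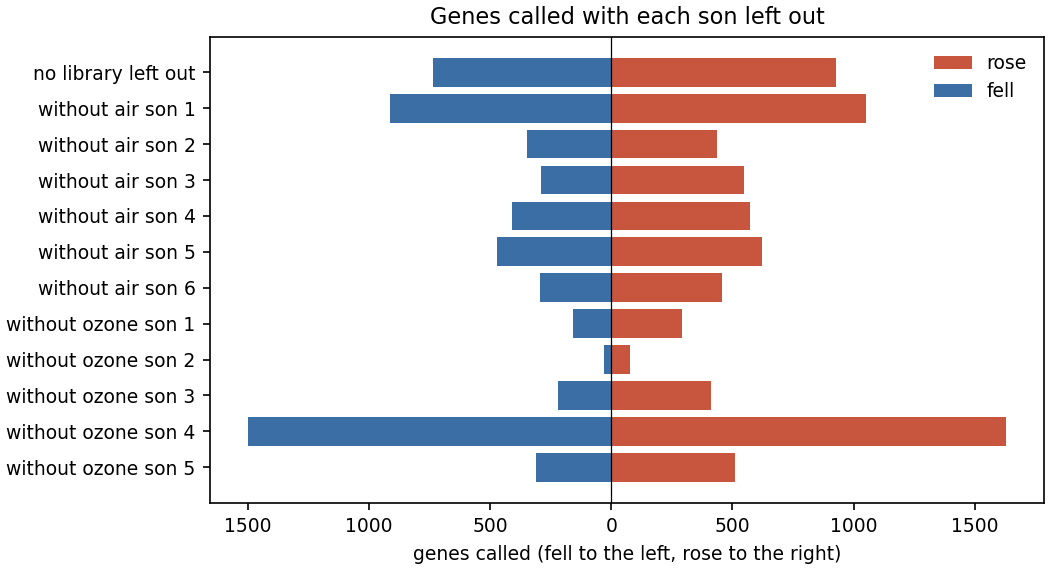
Number of genes called in sons (adjusted p below 0.05) with no library or 1 son left out; bars to the right count genes that rose and bars to the left genes that fell. The total runs from 108 without ozone son 2 to 3129 without ozone son 4, against 1661 with all sons.

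The 4 identifiers described next were taken by rule: whole counts in every library, at least 1 CPM in the higher group, called in all 11 fits, and the largest log2 change, 2 in each direction. ENSRNOG00000055561 rose in every ozone son. It measured 7.91, 4.02, 5.37, 1.75, 2.14 and 4.66 CPM in air sons 1 to 6, and 60.7, 94.3, 117, 20.8 and 149 CPM in ozone sons 1 to 5. All ozone sons lay above all air sons. The means were 4.31 ± 2.26 and 88.3 ± 49.6 CPM (SD, n = 6 and 5), 20.5-fold apart, with a log2 change of 4.24 (SE 0.75; edgeR adjusted p = 0.00355). Passing in the 11 fits without 1 son was part of the choice of all 4 genes. In sheet 1 alone its log2 change was 4.21 (edgeR adjusted p = 0.0489). Air daughters averaged 128 ± 131 CPM and ozone daughters 75.5 ± 57.3 CPM (SD, n = 6 each), with a wide spread in both.

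ENSRNOG00000058488 was all but silent in air sons. It had 1 read in air son 1 (0.0791 CPM) and 0 in the other 5, against 0.979, 1.20, 1.49, 0.351 and 2.01 CPM in ozone sons 1 to 5. The groups did not overlap. Summed over libraries, 70 reads in ozone sons stood against 1 in air sons, a ratio of 77.3 (95% exact interval 13.4 to 3100, covering counting error only). The edgeR adjusted p was 0.00249. In a fit of the sons alone this identifier did not pass the filter on low counts, so it entered the joint fit through the daughters' libraries. In air daughters it ranged from 0.0698 to 1.63 CPM and in ozone daughters from 0.363 to 1.33 CPM. In sheet 1 alone its log2 change was 6.70 against 5.49 in all sons, and its adjusted p was 0.0763 by edgeR.

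ENSRNOG00000017979 fell to an even level. It measured 6.17, 6.49, 7.73, 6.66, 8.09 and 6.72 CPM in air sons 1 to 6 and 3.29, 3.66, 3.68, 3.51 and 3.83 CPM in ozone sons 1 to 5. The groups did not overlap, and ozone son 4 was as low as the rest. The means were 6.97 ± 0.755 and 3.60 ± 0.204 CPM, a log2 change of −0.94 (SE 0.18; edgeR adjusted p = 0.0055). Air daughters averaged 3.52 ± 0.636 CPM and ozone daughters 4.03 ± 1.22 CPM. In sheet 1 alone its log2 change was −0.96, with an adjusted p of 0.071 by edgeR.

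ENSRNOG00000059922 fell in 4 of the 5 ozone sons. Air sons 1 to 6 had 2.69, 6.80, 3.20, 2.83, 1.46 and 3.14 CPM, and ozone sons 1 to 5 had 0.623, 0.598, 0.526, 2.72 and 0.365 CPM. Ozone son 4 lay within the range of air sons, so the groups overlapped. The means were 3.35 ± 1.80 and 0.966 ± 0.985 CPM, a log2 change of −1.99 (SE 0.40; edgeR adjusted p = 0.00881). Air and ozone daughters averaged 0.801 ± 0.302 and 0.902 ± 0.286 CPM. In sheet 1 alone its log2 change was −2.03, with an adjusted p of 0.0982 by edgeR.

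**Figure D4:**
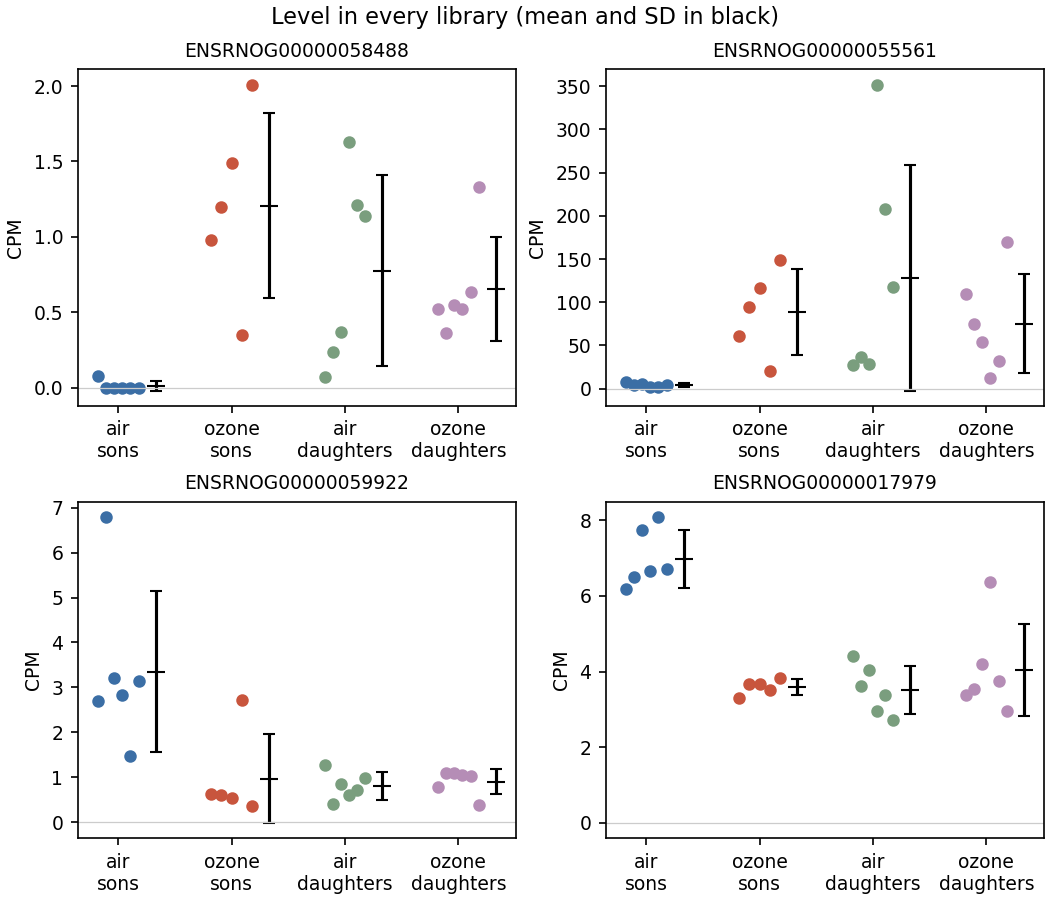
CPM of the 4 identifiers in all 23 libraries, by group; points are libraries in replicate order and black bars the mean and SD. All ozone sons lie above all air sons in the upper panels (means of 88.3 and 4.31 CPM for ENSRNOG00000055561). They lie below all air sons for ENSRNOG00000017979, and for ENSRNOG00000059922 ozone son 4 (2.72 CPM) lies within the range of air sons.

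Each son was then placed by genes that it had not helped to choose. Genes were called without him, and his mean log2 level of rises minus falls was scaled so that the other air sons averaged 0 and the other ozone sons 1. Ozone sons 1, 2, 3 and 5 lay at 1.11, 1.07, 1 and 1.01. Ozone son 4 lay at 0.219. Air sons 1 to 6 lay at 0.421, 0.0766, 0.103, −0.0641, 0.0421 and 0.117. By these values ozone son 4 lay below air son 1 and above the other air sons. Each position had its own genes and scale, with 1623 rises and 1497 falls for ozone son 4 and 1053 and 913 for air son 1. Ozone son 4 counted in the ozone mean of every other son's scale. The order of the positions is therefore a description. Ozone son 2 and air sons 1, 4 and 5 are of sheet 2. Rises and falls gave like positions, 0.205 and 0.233 in ozone son 4 and 0.371 and 0.475 in air son 1. A principal component analysis of the sons showed the same 2 animals between the rest: on component 1 (34.9% of the variance) ozone sons 1, 2, 3 and 5 lay at 27 to 30, ozone son 4 at −7.47, air son 1 at −3.91 and the other air sons at −23.3 to −15. Component 2 (14.3%) did not separate the groups. On it the sheet 2 sons lay at 6.1 to 20.5 and the sheet 1 sons at −23.5 to 9.6, and a link with the sheet was not tested. The total counts of ozone son 4 and air son 1 were 11272214 and 12645920, and the part of depth in their positions was not tested.

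**Figure D5:**
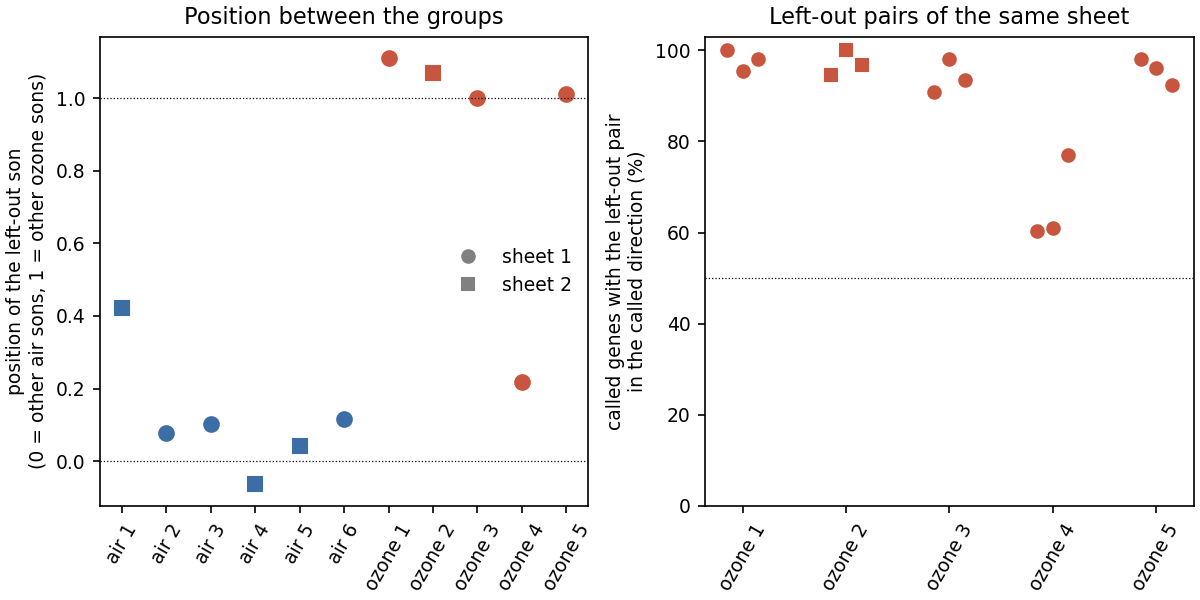
Left, the position of each left-out son on the genes called without him (0, mean of the other air sons; 1, mean of the other ozone sons; circles sheet 1, squares sheet 2). Right, the share of called genes (%) in which a left-out ozone son differed from a left-out air son of his sheet in the called direction; 4 ozone sons lie at 90.8% or more and ozone son 4 at 60.3% to 77%.

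The direction of change recurred in left-out pairs. For each of the 15 pairs of an ozone and an air son of the same sheet, genes were called from the other 9 sons and all daughters, and the pair was compared. The share of called genes in which the pair differed in the called direction had a median of 95.4% (60.3% to 100%), over 25 to 2589 called genes. For the sheet 2 pairs, ozone son 2 against air sons 1, 4 and 5, it was 94.6%, 100% and 96.8%. For the 3 pairs with ozone son 4 it was 60.3%, 61% and 77%. In pairs of different sheets, ozone son 4 against air son 1 gave 39.5%, the only one of the 30 pairs under 50%. Pairs share libraries and genes vary together, so these shares are a description, with no test.

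The spread within groups was compared as a description, with no test. The median SD of log2 CPM over all genes was 0.283 in ozone and 0.263 in air sons, and 55.6% of genes varied more among ozone sons. Among the genes that rose, 74.7% did, and among those that fell 61.4%. Without ozone son 4 the shares were 39.9% of all genes, 39.6% of those that rose and 34.4% of those that fell. Of the called genes, 39% had groups that did not overlap (341 above and 307 below); over all tested genes 3.43% lay wholly above and 3.30% wholly below.

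The contrast of ozone with air daughters called 0 of 12792 genes (0%, edgeR, n = 6 and 6; 1293 had an unadjusted p below 0.05). With each sex fitted alone, so that no library or sheet term was shared, 76.4% of the 1133 genes that rose in sons by that fit and were tested in both sexes were lower in ozone daughters (median log2 −0.15), against 50.8% of all genes. Of the 879 that fell in sons, 82.5% were higher in ozone daughters (median 0.25). The sheets weigh on this comparison, since sheet 1 held 5 air and 1 ozone daughter and sheet 2 the reverse. Within sheets, the genes called from the sons alone and tested in the joint fit were compared. In sheet 1 the ozone daughter was lower than the mean of the 5 air daughters in 44.7% of the 1136 genes that rose in sons, against 47.8% of all genes, and higher in 66.8% of the 888 that fell. In sheet 2 the mean of the 5 ozone daughters was lower than the air daughter in 88.8% of the rises, against 51.5% of all genes, and higher in 85.2% of the falls. For the falls the opposite direction was the more frequent in both sheets, and for the rises in sheet 2 alone. Each of these values rests on an arm of 1 daughter, and none was tested.

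The ozone effect in sons was set against that in daughters by the interaction term. It passed in 1357 genes, 10.6% of all, and in 55.7% of the genes that rose and 63.9% of those that fell in sons (edgeR). The sons' effect that chose these genes is part of the interaction term. Their larger shares therefore follow in part from the choice and are a description. The count of 1357 rested on single libraries: it was 0 without air son 6, ozone son 2 or air daughter 2, 1 without air son 3, and 2729 without ozone son 4. The 4 named genes were chosen for their change in sons, so their interaction values are a description (edgeR adjusted p = 0.0306 for each). The sons' log2 effect exceeded the daughters' by 4.70 for ENSRNOG00000055561 and 5.59 for ENSRNOG00000058488. The difference was −1.09 for ENSRNOG00000017979 and −2.70 for ENSRNOG00000059922. In daughters the log2 effects of these genes, in the same order, were −0.45, −0.11, 0.15 and 0.71, with edgeR adjusted p of 0.837, 0.964, 0.763 and 0.576. The 4 interaction calls were lost without air son 3, air son 6, ozone son 2 or air daughter 2 (adjusted p from 0.0539 to 0.105), and that of ENSRNOG00000059922 also without air son 2 (0.0513). The differences stayed of like size with any 1 of the 23 libraries left out: 4.19 to 5.25 for ENSRNOG00000055561, 5.00 to 6.82 for ENSRNOG00000058488, −1.15 to −0.95 for ENSRNOG00000017979 and −3.34 to −2.27 for ENSRNOG00000059922.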

How the data were processed

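Liver poly(A) RNA of 23 rat offspring was analysed, 11 of them sons. The authors deposited estimated counts per Ensembl gene; per the submitters' processing notes the build was rn6 and the tools were Partek, DESeq2 and STAR 2.6.1d; annotation and settings of the counting: not given in the sources used here. Values were whole in every library for 66.8% of genes (tolerance 1e-06). Counts were rounded and fitted with edgeR 4.0.16 (R 4.3.3): filterByExpr left 12792 genes with 99.91% of the counts, TMM factors lay between 0.941 and 1.054, and the quasi-likelihood model held 4 group means and the sheet (18 residual degrees of freedom). The printed SE is the log2 change divided by the square root of F. Log2 CPM used a prior count of 2. Total counts per library lay between 8000498 and 15594817. Replicates were numbered in accession order. The chi-square over genes, divided by its degrees of freedom, was 13.3 to 68.9 between sons of the same group, so none was a copy. Named genes had to be past the threshold, with whole counts and at least 1 CPM in the higher group, and were ranked by the number of fits without 1 son in which they passed, then by log2 change, 2 per direction. The fit was tested on counts simulated for ozone against air sons (12792 genes): of genes changed by 1.5, 2 and 4-fold it called 28.4%, 68.7% and 89.4%, and it called 4 of 12592 unchanged genes. The changed genes were drawn from those averaging over about 1 CPM, so recovery of scarcer genes was not tested. Simulated counts were drawn independently for each gene and library. No simulated animal was set apart in many genes, as ozone son 4 was in the data. The simulation therefore does not show how many genes were falsely called or missed in the real sons. Alternatives used DESeq2 1.42.0 and limma 3.58.1. Principal components used the 2000 most variable genes of the sons. The comparison, lists and tests were chosen with earlier results of these data known; the position of left-out sons, the large-change classes, the spread, the daughters' fits by sex or sheet and the genes called from the sons alone were added after the data were seen.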

Additional observations from a re-analysis of the deposited data

Results flagged for a closer look

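In 11 of 38 groups of values examined, 1 library stood far from the rest of its group. About 1 group in 20 would by chance if values were normally distributed and the groups independent. The groups are not independent, since several hold related values of the same animals, so no excess over chance can be read from this count. Ozone son 4 stood apart on component 1 (−7.47, next 27), in his position on genes called without him (0.219, next 1), in the share of counts in genes that fell (4.696%, next 3.585%) and in ENSRNOG00000059922 (2.72 CPM, next 0.623). Air son 1 stood apart in his position (0.421, next 0.117) and in the share of counts in genes that rose (6.253%, next 5.733%), and he held the only read of ENSRNOG00000058488 among air sons (0.0791 CPM, next 0). Ozone son 2 had the largest total count of the ozone sons (14098393, next 11272214). ENSRNOG00000059922 was high in air son 2 (6.80 CPM, next 3.20), ENSRNOG00000058488 in ozone daughter 6 (1.33 CPM, next 0.636) and ENSRNOG00000017979 in ozone daughter 4 (6.37 CPM, next 4.2).

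The ozone effect differed between sons and daughters by the interaction term in the 4 named genes, which were chosen for their change in sons: by 5.594 on the log2 scale in ENSRNOG00000058488, 4.697 in ENSRNOG00000055561, −2.703 in ENSRNOG00000059922 and −1.085 in ENSRNOG00000017979 (edgeR adjusted p = 0.0306 each, 0.00848 to 0.105 with any 1 of the 23 libraries left out).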

How the results depend on the processing

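The main fit called 1661 genes in ozone sons. With sons of sheet 1 alone 9 genes were called, 7 of them among the 1661. Among the 8240 genes with whole counts only, where fewer genes were tested, 902 were called, 901 of them among the 1661. Leaving out 1 son gave 108 to 3129. Other scalings, filters and tools, the sons alone and a fit with no sheet term gave 1331 to 2296, with 0 genes in the opposite direction; total-count scaling and limma voom gave more falls than rises. Without a filter on low counts 478 genes fell, against 735. The share of called genes in which a left-out pair differed in the called direction had a median of 94.7% over all 30 pairs. With genes taken at an unadjusted p below 0.01, the median was 92.3% over the 15 pairs of the same sheet. Without sheets, the depth difference of ozone sons was 994400 (exact permutation p = 0.251), and that of the 10 most abundant genes −1.073 percentage points (p = 0.0368, exact permutation). Within sheets the latter difference was −0.9478 percentage points, and −1.161 to −0.6523 with any 1 son left out. The 4 named genes kept their direction in all alternatives that tested them; each but ENSRNOG00000055561 missed the threshold in sheet 1 alone. ENSRNOG00000058488 had too few reads to be tested with the sons alone or at a mean of at least 1 CPM. DESeq2 gave it no adjusted p. No paired analysis was possible because replicate numbers were given in accession order and tie no animals together. Few reads limit genes under 1 CPM.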
